A study of Mus musculus with 140 samples.

Results

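The transcripts of 4 protein kinase C genes, Prkca, Prkcb, Prkcd and Prkce, were followed through the eCLIP-seq data of HD R6/2 mice and of mice given an antisense oligonucleotide (ASO) against TDP-43. The genes were taken by name, and every cluster whose midpoint and strand fell inside one of them (GENCODE vM21, mm10) was counted, together with the Prkcb 3′ UTR sites seen in a single genotype. These 4 of 55450 annotated genes held 13655 of the 13239113 clusters listed by the 70 immunoprecipitation libraries, and 4226 of the 3579282 clusters enriched over input. An enriched cluster is one with a p of 0.001 or less for immunoprecipitated against input reads. The set was proposed with earlier results of these data known, and the Prkcb sites were chosen by their own genotype pattern, so the R6/2 against NT values of Prkcb are given as a description with no test.

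Protein kinase C enzymes are serine/threonine kinases that act downstream of receptors coupled to phospholipase C. The conventional members, here PKCα (Prkca) and PKCβ (Prkcb), respond to both calcium and diacylglycerol. Members of another class, here PKCδ (Prkcd) and PKCε (Prkce), respond to diacylglycerol without calcium. In forebrain neurons these kinases phosphorylate receptors, channels and the release machinery, and Prkcb is transcribed into mRNAs with alternative 3′ ends that encode the βI and βII isoforms. TDP-43 is an RNA-binding protein that prefers UG-rich stretches, and m6A is a methyl mark on adenosine that is common around stop codons and in 3′ UTRs.

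R6/2 mice (B6CBA-Tg(HDexon1)62Gpb/3J) carry exon 1 of human huntingtin with an expanded CAG repeat, and NT mice are their non-transgenic controls. Both were 3 months old, and striatum and cortex were each profiled by TDP-43 eCLIP-seq (UV-crosslinked tissue) and by m6A eCLIP-seq (RNA selected with poly-dT), with 4 males and 4 females per genotype, region and assay. In a separate experiment C57Bl/6J males received 500 ug of the TDP-43 ASO, or PBS, into the ventricle at 5 weeks and were collected 2 weeks later, and m6A eCLIP-seq was done on 3 mice per treatment. The sample labels name cortex for that experiment while the treatment protocol names striatum, and the sample labels were followed. These are bulk tissue samples, so fewer cells of a type and less RNA per cell cannot be told apart, and the level of each transcript was not measured here.

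The libraries listed 133211 to 260739 clusters, of which 4929 to 99049 were enriched. Read depth is unknown, and the number of enriched clusters served as the yield of a library. In TDP-43 eCLIP-seq of striatum, 5 R6/2 libraries (all 4 females and male 4) had 30% or more of their listed clusters in introns, and NT male 1, R6/2 female 2 and R6/2 male 4 had fewer than 10000 enriched clusters. The main results of that set are also given without each of these groups of libraries. Without the 5 intronic ones, 27 in place of 318 genes were called over all genes, with 3 R6/2 libraries left. Marker genes went with the region labels. Medium spiny neuron markers were called higher in NT striatum than in NT cortex for 10 of 10 markers tested in the m6A data and 6 of 6 in the TDP-43 data. Cortical excitatory markers were called lower for 8 of 8 and 3 of 3. Of these markers 2, 3, 1 and 2, in that order, were tested only through the region where they were high and had to differ. Over all genes 18.7% were called in the m6A data. In the TDP-43 data 8.97% were called higher and 42.6% lower in striatum. In the ASO experiment 99.2 to 99.3% of the intervals were identical between libraries of a treatment and 1.96 to 1.97% between treatments, whereas other sets shared at most 1.08%. Clusters there were evidently called jointly within a treatment, so the libraries of a treatment are not independent in their intervals and the ASO p-values below rest on shared intervals.

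Stretches where at least 4 of the 16 libraries of an assay and region, or 3 of 6 in the ASO experiment, had an enriched cluster were taken as sites. The sequences below are those of the sites on which the results turn, read on the transcript strand from the GRCm38 assembly (mm10), with at most 30 bases of each. Each window is the best covered stretch of its site or, where the site holds a searched motif, the stretch around the match nearest to it. Capitals mark TGTGT in TDP-43 sites and DRACH (A, G or T, then A or G, then AC, then A, C or T) in m6A sites. The first pair were Prkcb 3′ UTR sites enriched in NT libraries alone, in striatum and in cortex.
Prkcb TDP-43 site, striatum, chr7:122628008-122628037 (+): atgtagaaagtgctgcataatcgagacacg
Prkcb TDP-43 site, cortex, chr7:122628505-122628532 (+): cggtaccttcatcccccaaactactcaa
The next was the Prkcb striatal site with the highest fold over input, past the end of the Prkcb-202 transcript.
Prkcb TDP-43 site, striatum, chr7:122628794-122628823 (+): agcagacttgtgcccatggggaggggattt
The following pair came from the last exon of Prkcb-201 and the bases just before it, where m6A and TDP-43 sites of Prkcb overlapped.
Prkcb m6A site, striatum, chr7:122633824-122633853 (+): tcatcatGAACTtGGACCaaaatgagtttg
Prkcb TDP-43 site, striatum, chr7:122633709-122633738 (+): gcttctgttttaaTGTGTtcgctttccatt
The strongest Prkce sites of both assays, which overlapped in the 3′ UTR, read as follows.
Prkce TDP-43 site, striatum, chr17:86655896-86655925 (+): caggagactaaggagcaactgatctgaggg
Prkce m6A site, striatum, chr17:86655970-86655999 (+): tggTAACTcacgtGGACTgatattacctcc
For Prkca, the strongest TDP-43 and m6A sites of cortex and the m6A site enriched in R6/2 alone are shown.
Prkca TDP-43 site, cortex, chr11:107935079-107935108 (−): ggttggggggacaatagcaaggaaggagac
Prkca m6A site, cortex, chr11:107936519-107936548 (−): tttgctacaAAACTAACTcacctggataac
Prkca m6A site, cortex, R6/2 alone, chr11:107939103-107939132 (−): cccTAACTcaaggAAACTcaaggAAACAct
Prkcd had m6A sites alone, and the striatal one is shown.
Prkcd m6A site, striatum, chr14:30595840-30595869 (−): taattaagctcccAGACCtgctttaaacgc

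TGTGT, a short UG repeat, was present in 2 of 32 striatal and 3 of 45 cortical TDP-43 sites of Prkcb, in 3 of 24 and 3 of 32 of Prkce, and in 0 of 1 and 1 of 9 of Prkca. Of all TDP-43 sites of the same sets, which differ in length, 9.86% in striatum and 9.76% in cortex held TGTGT on the transcript strand and 5.66% and 5.74% on the other strand. DRACH was present in 11 of 15 striatal, 11 of 14 cortical and 10 of 12 ASO-experiment m6A sites of Prkce, in 6 of 7, 5 of 6 and 6 of 7 of Prkca, and in the single Prkcb m6A site of each set. Over all m6A sites the share was 88.0%, 88.8% and 89.8%, against 78.0%, 78.6% and 82.3% on the other strand. GGACT, a form of DRACH, was in 5, 4 and 5 Prkce sites and in 2 Prkca sites of each set, against 32.9%, 33.5% and 35.5% of all m6A sites (13%, 13% and 16% on the other strand). These matches are a description of letters in the sites.

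Prkcb, which encodes PKCβ, spans chr7:122288751-122634402 on the plus strand (ENSMUSG00000052889.11). The normalized number of its enriched TDP-43 clusters in striatum was 28.0 at the lowest, 29.9 at the median and 41.8 at the highest over the 8 NT libraries, from 17 to 42 clusters before normalization. Over the 8 R6/2 libraries it was 13.6, 16.2 and 18.3, from 7 to 23 clusters. The highest R6/2 library lay below the lowest NT library, a separation seen with R6/2 lower in 2.27% of the 2333 genes tested. The group means were 31.5 ± 4.77 and 16.1 ± 1.54 (SD, n = 8), and the fitted log2 difference was −0.94 (SE 0.10), or 1.92-fold lower in R6/2. Without the 5 libraries with many intronic clusters it was −0.90, and without the 3 with fewer than 10000 enriched clusters it was −0.86. Males alone gave −0.92 and females alone −0.98.

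Prkcb of cortex in the same assay ran from 34.8 through a median of 42.7 to 52.9 in NT mice and from 28.7 through 34.5 to 39.3 in R6/2 mice. The cortical groups overlapped, unlike those of striatum. Their means were 42.8 ± 6.09 and 34.0 ± 3.25 (SD, n = 8), with a log2 difference of −0.32 (SE 0.10), or 1.25-fold lower in R6/2. All listed clusters, enriched or not, gave a different picture, with 71 to 122 in NT and 66 to 153 in R6/2 striatum, 64 to 123 and 78 to 112 in cortex, and log2 differences of −0.05 and −0.02. The numbers of listed clusters thus overlapped between genotypes in both regions, and the lower R6/2 values were those of clusters past the p threshold. Such a p depends on the reads in a cluster as well as on the fold, and the part of depth in these values was not tested.

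**Figure D1:**
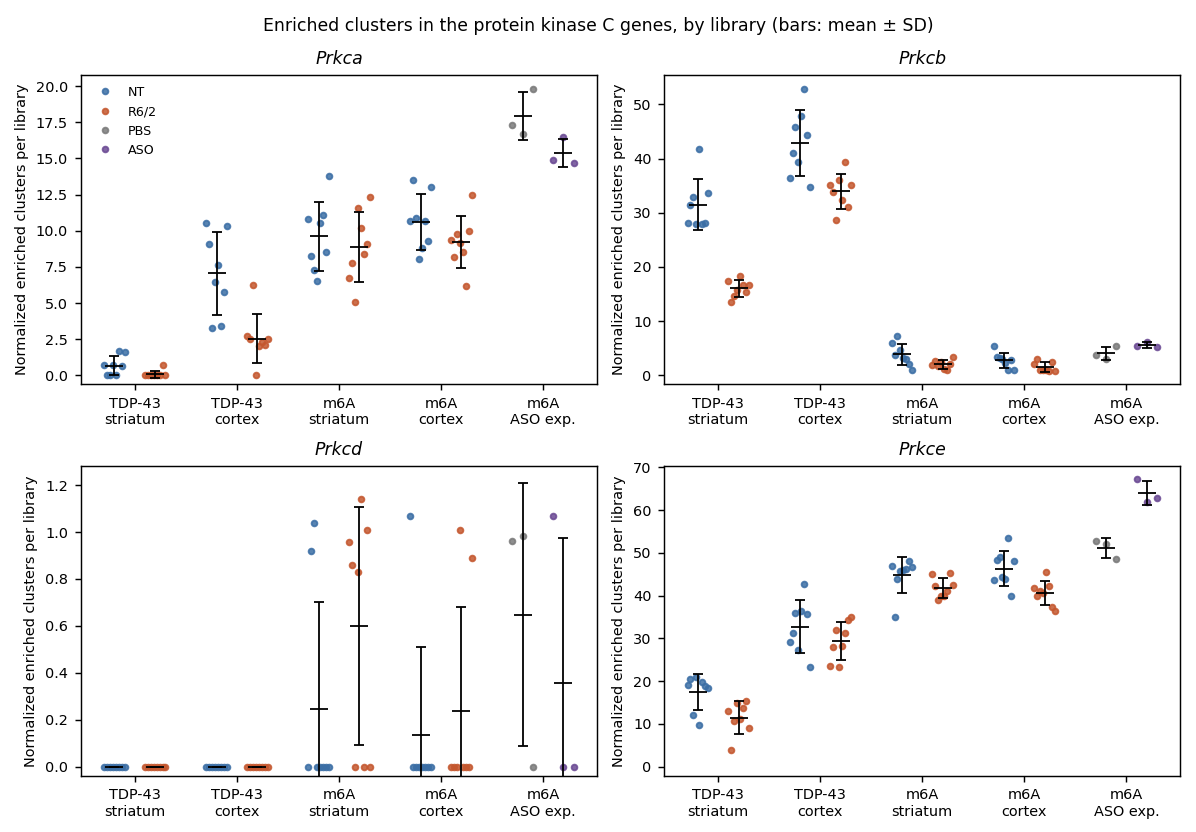
Normalized number of enriched clusters (vertical axis) in each library for Prkca, Prkcb, Prkcd and Prkce, in the 5 sets of libraries (horizontal axis). Each point is a library, coloured by genotype or treatment, the bars give mean ± SD, and for Prkcb in TDP-43 eCLIP-seq of striatum all R6/2 libraries (at most 18.3) lie below all NT libraries (at least 28.0).

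Most TDP-43 sites of Prkcb lay at its 3′ end, and most of those outside annotated exons. The gene has 2 alternative 3′ ends in the annotation. Prkcb-202 ends with a 3′ UTR of 841 bases (chr7:122627815-122628655), and Prkcb-201 skips this exon and ends with a last exon of 658 bases (chr7:122633745-122634402), leaving 5089 bases between them. Of 32 striatal TDP-43 sites, 10 lay in coding exons upstream, 3 in the Prkcb-202 3′ UTR, 18 between the ends and 1 in the last exon of Prkcb-201. Of 45 cortical sites, 16 lay in coding exons, 5 in that 3′ UTR, 20 between the ends, 3 in the last exon and 1 in an upstream intron. Thus 17 of 32 and 20 of 45 sites lay in no annotated exon, whereas 1.94% and 1.67% of all TDP-43 sites of these regions did. All 32 striatal sites overlapped a cortical site, and 30 of the 45 cortical sites overlapped a striatal one.

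**Figure D2:**
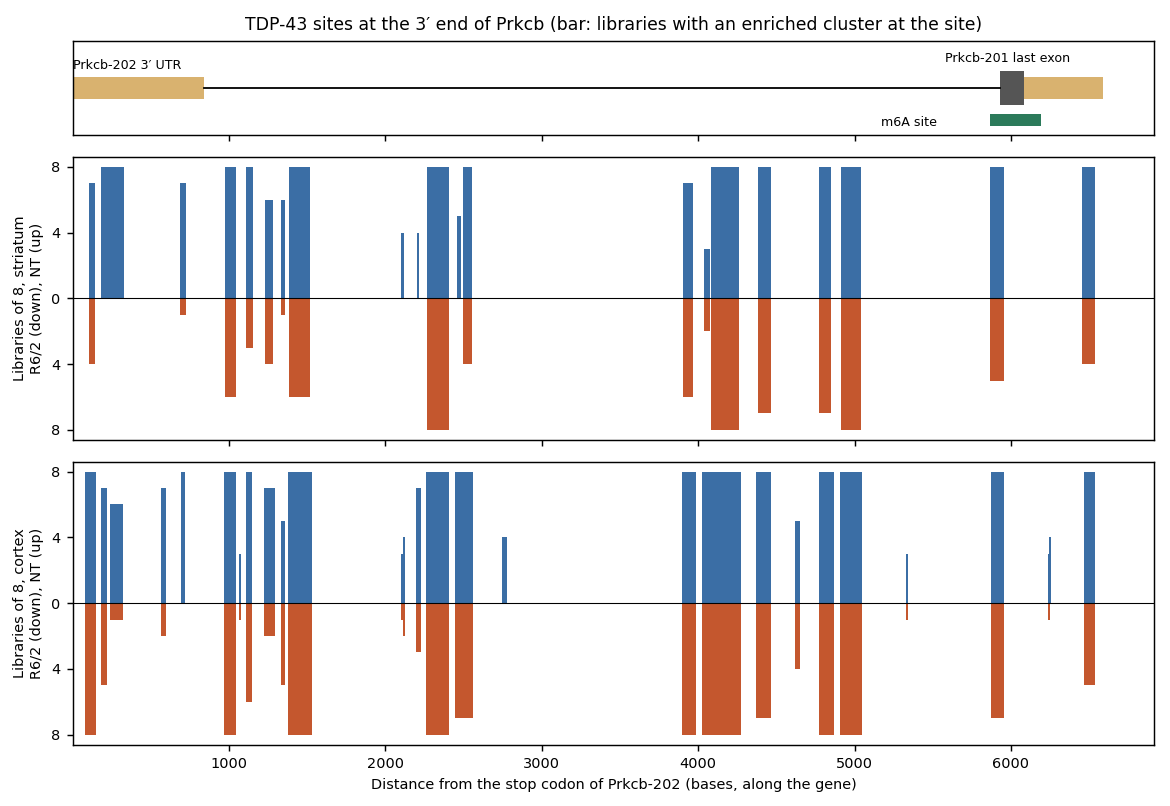
TDP-43 sites at the 3′ end of Prkcb in striatum and cortex, by distance in bases from the stop codon of Prkcb-202 along the gene (horizontal axis), with the number of libraries, of 8 each, that hold an enriched cluster at the site (vertical axis, NT upward and R6/2 downward). The annotated 3′ UTR, the 5089 bases that follow it and the last exon of Prkcb-201 are drawn to scale at the top, and 18 of 32 striatal sites lie in that middle stretch.

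The Prkcb 3′ UTRs held 3 sites seen in a single genotype. A site was taken as such when enriched in at least 4 of 8 libraries of a genotype and in 0 of 8 of the other. In striatum this held for 1 of the 4 Prkcb 3′ UTR sites, which was present in NT, and in cortex for 2 of 8, also in NT. No Prkcb 3′ UTR site was enriched in R6/2 alone in either region. Over all genes 4.89% of the 6564 striatal and 4.93% of the 13075 cortical 3′ UTR sites were enriched in NT alone.

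The striatal site, chr7:122627997-122628140, covers 144 bases of exon 17 of Prkcb-202, with its midpoint 255 bases past the stop codon. It was enriched in 8 of 8 NT libraries and in 0 of 8 R6/2 libraries. A listed cluster was nevertheless present there in 7 R6/2 libraries. Its log2 fold over input was 2.48 ± 0.30 in the 8 NT libraries (2.04 to 3.02) and 1.95 ± 0.40 in those 7 R6/2 libraries (1.37 to 2.38), ranges that overlap. Most R6/2 libraries thus still listed the site, with a p above the threshold. The site was enriched in 0 of the 3 R6/2 libraries left without the intronic ones, and in 7 of 7 NT and 0 of 6 R6/2 libraries without those that had fewer than 10000 enriched clusters. The same stretch in cortex held a site enriched in 7 NT and 5 R6/2 libraries (chr7:122627997-122628033) and another enriched in 6 and 1 (chr7:122628052-122628132).

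The first cortical site, chr7:122628505-122628532, covers 28 bases and lies 705 bases past the same stop codon. It was enriched in 8 NT and 0 R6/2 libraries and listed in 1 R6/2 library, with a log2 fold of 2.75 ± 0.63 in NT and 1.48 in that library. In striatum the matching site (chr7:122628502-122628535) was enriched in 7 NT libraries and 1 R6/2 library and listed in 4 R6/2 libraries, just outside the definition, with a log2 fold of 2.68 ± 0.43 in NT and 2.97 ± 0.61 in R6/2. The other cortical site covers 4 bases in the last exon of Prkcb-201 (chr7:122634060-122634063), 165 bases past its stop codon, and was enriched in 4 NT and 0 R6/2 libraries, just inside it. Next to the threshold on the other side were cortical sites enriched in 7 NT and 2 R6/2 libraries (chr7:122628376-122628413) and in 3 and 1 (chr7:122634052-122634054). When any listed cluster counted as presence, no Prkcb 3′ UTR site was left in a single genotype in either region. The same held at the study's thresholds (a log2 fold of at least 3 as well). At those thresholds, however, Prkcb had only 1 striatal and 2 cortical 3′ UTR sites, against 4 and 8 in the main setting.

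**Figure D3:**
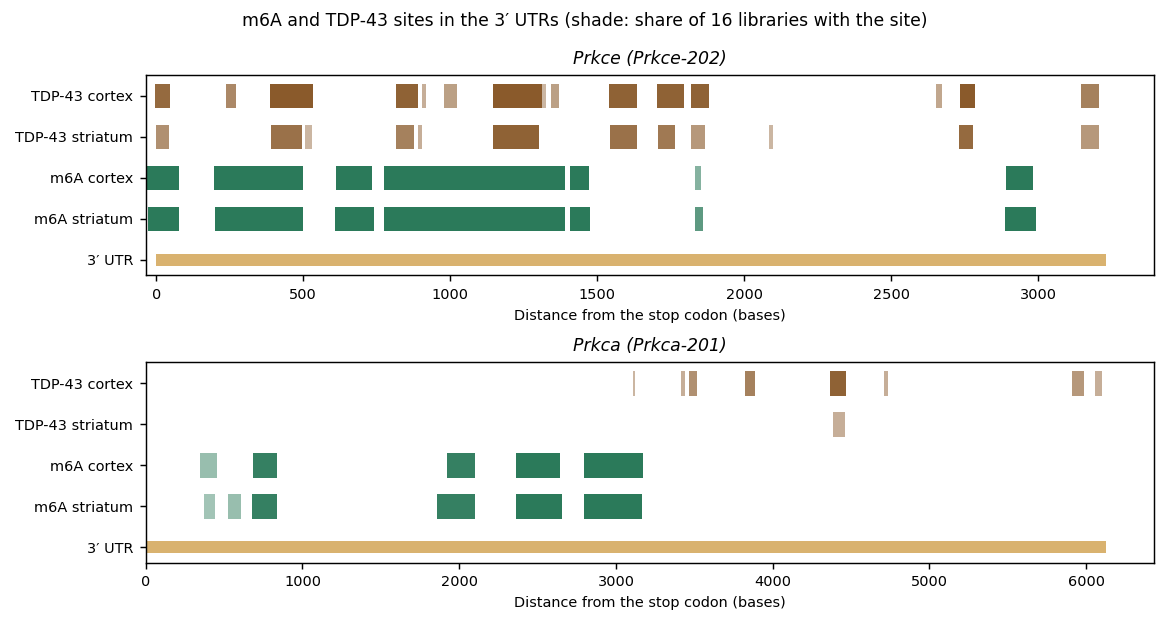
Sites of TDP-43 and m6A in the 3′ UTRs of Prkce-202 and Prkca-201 by distance in bases from the stop codon (horizontal axis), for each assay and region of the R6/2 experiment (rows), with a darker shade where more of the 16 libraries hold the site. The cortical m6A sites of Prkca have midpoints up to 2985 bases and its TDP-43 sites from 3109 bases onward, whereas in Prkce both assays share stretches.

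The enriched TDP-43 clusters of Prkcb were also counted by segment, as a description. The Prkcb-202 3′ UTR held 2 to 8 enriched clusters in NT striatum (normalized 4.55 ± 0.775) and 0 to 2 in R6/2 striatum (0.521 ± 0.591), with 4 R6/2 libraries at 0. In cortex it held 4.67 ± 1.50 and 2.12 ± 0.837. Its share of all enriched TDP-43 clusters of the gene was 14.8% in NT and 3.79% in R6/2 striatum, and 11% and 6.23% in cortex. The stretch between the ends held 16.5 ± 3.66 and 10.8 ± 2.08 in striatum and 20 ± 3.17 and 17.3 ± 2.36 in cortex, and its share was 51.6% in NT and 63.6% in R6/2 striatum, and 46.7% and 50.6% in cortex. The upstream coding exons held 8.35 ± 1.40 and 4.14 ± 2.60 in striatum and 15.2 ± 3.12 and 13.3 ± 1.83 in cortex. The mean of every segment was lower in R6/2 striatum. The shares of the Prkcb-202 3′ UTR, the last exon of Prkcb-201 and the upstream introns and other exons were lower in R6/2 in both regions. The Prkcb-202 3′ UTR holds sites that were chosen by their genotype pattern, so its values are a description and the segments are not ranked. Without the intronic libraries the Prkcb-202 3′ UTR held 0.750 ± 0.726 in the 3 R6/2 striatal libraries left (4.41% of the gene), and without the libraries with fewer than 10000 enriched clusters 0.694 ± 0.586 in 6 (4.39%), against 4.50 ± 0.822 in 7 NT libraries (15.0%).

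Site by site, Prkcb was enriched in more NT than R6/2 libraries at 29 of 32 striatal sites and in fewer at none, and at 27 of 45 cortical sites with 1 in the opposite direction. Of all TDP-43 sites 51.5% in striatum and 51.8% in cortex were enriched in more NT libraries, and 23.2% and 15.9% in fewer. NT libraries also had more enriched clusters in all, with means of 17843 against 15970 in striatum and 38635 against 31620 in cortex. The remaining striatal sites, between the ends, were enriched in 8 of 8 libraries of both genotypes (chr7:122630080-122630219, chr7:122631895-122632073 and chr7:122632725-122632852). The site with the highest fold in striatum, 71 bases at chr7:122628786-122628856 just past the end of Prkcb-202, was enriched in 8 NT and 6 R6/2 libraries at a log2 fold of 4.48 ± 1.30 and 4.07 ± 0.67. Its cortical counterpart was enriched in all 16 libraries at 4.36 ± 0.38 in NT. In all, 5 of 32 striatal sites were enriched in NT alone, including 4 between the ends, and 3 of 45 cortical sites, against 3.56% and 3.38% of all TDP-43 sites.

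The m6A signal of Prkcb was sparse and sat at the other 3′ end. No library of the R6/2 experiment had an enriched m6A cluster in the Prkcb-202 3′ UTR, and the last exon of Prkcb-201 held 80.6% to 100% of the gene's enriched m6A clusters, depending on region and genotype. A single m6A site covered the start of that exon in every set, at chr7:122633681-122634005 in striatum, where it was enriched in 8 of 8 NT and 8 of 8 R6/2 libraries at a log2 fold of 1.47 ± 0.40 and 1.12 ± 0.27. In cortex it was at 1.31 ± 0.37 and 0.948 ± 0.39, and in the ASO experiment it was enriched in all 6 libraries. It overlapped a TDP-43 site by 86 bases in striatum and 69 in cortex, the single overlap of the marks in Prkcb. The number of enriched m6A clusters was 1 to 7 in NT and 1 to 3 in R6/2 striatum (3.86 ± 2.02 and 2.03 ± 0.772, log2 difference −0.69, SE 0.24) and 1 to 5 and 1 to 3 in cortex (2.74 ± 1.41 and 1.55 ± 0.875, −0.64, SE 0.26). The groups overlapped in both regions, and with covered bases in place of clusters the striatal difference was −0.18.

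Prkce, which encodes PKCε, spans chr17:86167785-86657919 on the plus strand (ENSMUSG00000045038.14) and was tested in every comparison. In TDP-43 eCLIP-seq of striatum its normalized number of enriched clusters ran from 9.83 through 19.0 to 21.0 in NT and from 3.88 through 12.1 to 15.4 in R6/2 mice. The groups overlapped, with the lowest NT value in male 1, a library with few enriched clusters. The difference did not pass the test (17.4 ± 4.16 and 11.5 ± 3.76, log2 −0.63, SE 0.24, 95% interval −1.13 to −0.13, limma adjusted p = 0.0952), in a comparison where 13.6% of the 2333 genes tested were called. It passed without the 3 libraries with fewer than 10000 enriched clusters (−0.47, limma adjusted p = 0.0172). Without the libraries with many intronic clusters it was −0.23 (adjusted p = 0.615), in a fit that called 27 genes in all. The median over all genes was 0.39 in that fit and −0.05 in the main one. Listed clusters, 55 to 113 in NT and 55 to 205 in R6/2, gave the opposite direction (0.30, adjusted p = 0.144).

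Cortical TDP-43 values of Prkce ran from 23.2 to 42.8 (median 33.4) in NT and from 23.3 to 35.1 (median 29.8) in R6/2 mice. Its log2 difference was −0.14 (SE 0.12, 95% interval −0.39 to 0.10, limma adjusted p = 0.505). In m6A eCLIP-seq it ran from 35.0 to 48.1 and from 38.9 to 45.3 in striatum and from 40.0 to 53.4 and from 36.5 to 45.5 in cortex. The differences of −0.09 (SE 0.06, adjusted p = 0.424) and −0.19 (SE 0.06, 95% interval −0.32 to −0.06, adjusted p = 0.0785) did not pass limma's test, where 9.65% of 9734 and 6.17% of 9071 genes did. Prkce therefore had no called difference between R6/2 and NT in either assay or region.

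The TDP-43 sites of Prkce lay in its exons, in contrast to those of Prkcb. Of 24 striatal sites 9 were in coding sequence, 12 in the 3′ UTR and 3 in the 5′ UTR, and of 32 cortical sites 12, 15 and 5 were, with none in introns. Enriched TDP-43 clusters in Prkce introns numbered 0 to 2 per library, although 23 to 174 listed clusters per library lay in striatal introns of the gene. The strongest site covered chr17:86655834-86655988 in the 3′ UTR, 1224 bases past the stop codon of Prkce-202, and was enriched in 8 NT and 7 R6/2 striatal libraries at a log2 fold of 5.82 ± 0.66 and 4.70 ± 1.19. In cortex its counterpart was enriched in all 16 libraries at 5.99 ± 0.94 and 5.20 ± 0.42. More NT than R6/2 libraries were enriched at 18 striatal sites and fewer at 2, and at 20 and 3 cortical sites, beside the shares of all sites given for Prkcb. A single cortical site of 13 bases, 911 bases past the stop codon, was enriched in NT alone, in 5 of 8 libraries.

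Of the 4 genes Prkce had the most sites where TDP-43 and m6A overlapped. Its 3′ UTR held 7 of 15 striatal and 7 of 14 cortical m6A sites, and the longest of them, 615 bases at chr17:86655462-86656076, was enriched in all 16 striatal libraries (log2 fold 3.35 ± 0.16 and 3.16 ± 0.19) and contained the strongest TDP-43 site. In all 6 of 24 striatal TDP-43 sites overlapped an m6A site, which is 4 of the 15 m6A sites and 399 bases, and in cortex 11 of 32 overlapped 5 of 14 over 573 bases. In intron 2, by contrast, lay 3 m6A sites of striatum and 3 of cortex that no TDP-43 site overlapped. Of these, a cortical site at chr17:86419023-86419156 was enriched in 7 NT libraries and 1 R6/2 library, and its neighbour at chr17:86419296-86419358 in 4 and 0, the single m6A site of Prkce in NT alone (0.918% of all cortical m6A sites were). The matching striatal sites were enriched in 8 NT and 7 R6/2, and in 7 and 4 libraries.

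**Figure D4:**
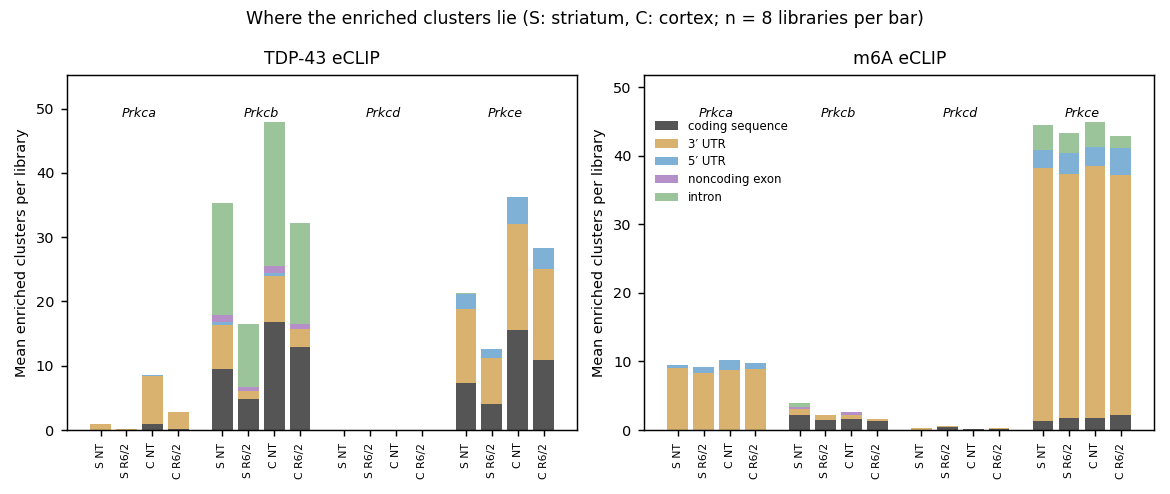
Mean number of enriched clusters per library (vertical axis, not normalized) in coding sequence, 3′ UTR, 5′ UTR, noncoding exons and introns for the 4 genes, by region and genotype (horizontal axis, n = 8 libraries per bar). The intronic part appears in TDP-43 bars of Prkcb and hardly in those of Prkce, and Prkcd is empty for TDP-43.

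Prkca, which encodes PKCα, spans chr11:107933387-108343928 on the minus strand (ENSMUSG00000050965.14). Its normalized number of enriched TDP-43 clusters in cortex ran from 3.27 through 7.05 to 10.5 in NT and from 0 through 2.41 to 6.22 in R6/2 mice, from 3 to 16 and 0 to 8 clusters. The groups overlapped, with R6/2 female 3 the highest R6/2 library. Prkca fell in R6/2 (7.05 ± 2.85 and 2.55 ± 1.71, log2 −1.46, SE 0.40, 95% interval −2.30 to −0.62, 2.75-fold lower, limma adjusted p = 0.0337). In this comparison 7.10% of the 3904 genes tested were called and 5.64% were called lower. The call was lost at the study's thresholds (−1.0, adjusted p = 0.195), in females alone (−1.62, adjusted p = 0.385), with the replicate block and on leaving out any 1 of 9 of the 16 libraries (NT females 1, 2 and 4, NT males 1, 3 and 4 and R6/2 males 1, 2 and 3, adjusted p from 0.0531 to 0.0772). With all listed clusters (43 to 87 in NT, 64 to 106 in R6/2) the difference was 0.11 (adjusted p = 0.643). In striatum Prkca had 0 to 2 enriched TDP-43 clusters in NT and 0 to 1 in R6/2 libraries, with 3 and 7 libraries at 0, and was too low to be tested.

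In the R6/2 experiment the cortical TDP-43 and m6A sites of Prkca lay in separate parts of its 3′ UTR. The 3′ UTR of Prkca-201 runs for 6129 bases past the stop codon. Its 8 cortical TDP-43 sites had midpoints from 3109 to 6079 bases past the stop codon, and its 5 cortical m6A sites had midpoints from 398 to 2985. They shared 6 bases in all. The ASO experiment, however, had an m6A site among those distances, at chr11:107935427-107935563 and 4021 bases past the stop codon, enriched in 2 PBS and 2 ASO libraries. The strongest TDP-43 site, chr11:107935051-107935149, was enriched in 8 NT and 7 R6/2 libraries at a log2 fold of 4.23 ± 0.74 and 3.64 ± 0.53, and its striatal counterpart in 4 and 1. All 9 cortical TDP-43 sites, including 1 in coding sequence, were enriched in more NT than R6/2 libraries, as 51.8% of all cortical TDP-43 sites were, and 2 were enriched in NT alone, in 4 and in 5 libraries.

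The m6A values of Prkca were not called between genotypes. They ran from 6.52 through 9.52 to 13.8 in NT and from 5.08 through 8.73 to 12.3 in R6/2 striatum, and from 8.06 through 10.7 to 13.5 and from 6.16 through 9.26 to 12.5 in cortex. The log2 differences were −0.11 (95% interval −0.41 to 0.18, limma adjusted p = 0.690) and −0.20 (−0.46 to 0.06, adjusted p = 0.384), and neither passed. The strongest m6A site, chr11:107936344-107936718 in cortex, was enriched in all 16 libraries at a log2 fold of 1.84 ± 0.26 and 1.75 ± 0.13. The site nearest to the stop codon, chr11:107939064-107939172, was enriched in 0 NT and 5 R6/2 cortical libraries, which 0.868% of all cortical m6A 3′ UTR sites were, but it was listed in 4 NT libraries at nearly the same log2 fold (0.611 ± 0.21 against 0.720 ± 0.26). In striatum it was enriched in 1 NT and 3 R6/2 libraries. The m6A site in the 5′ UTR lies where Apoh overlaps on the other strand, and clusters were assigned by strand.

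Prkcd, which encodes PKCδ (chr14:30595354-30626210, minus strand, ENSMUSG00000021948.17), had no enriched TDP-43 cluster in any of the 32 TDP-43 libraries, although each listed 2 to 15 clusters there. In m6A eCLIP-seq it had 0 or 1, with 1 in 2 NT and 5 R6/2 striatal libraries and in 1 NT and 2 R6/2 cortical libraries. It passed the filter in no comparison and was not tested. Its striatal m6A site, chr14:30595764-30595956 around the stop codon, was listed in all 16 libraries at a log2 fold of 0.821 ± 0.22 in NT and 1.21 ± 0.37 in R6/2. A second, chr14:30595764-30595878 in the ASO experiment, was enriched in 2 PBS libraries and 1 ASO library.

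The regions of NT mice were compared next. On the scale of that comparison Prkca had 2.57 to 9.37 (median 5.88) enriched TDP-43 clusters in cortex and 0 to 2.28 (median 0.976) in striatum. The groups did not overlap, which with striatum lower was so for 16.1% of the 3277 genes tested. The means were 5.97 ± 2.62 and 0.941 ± 0.942 (log2 −2.36, SE 0.43), or 5.15-fold lower in striatum. Prkca passed the filter through cortex, where 8 of 8 libraries had 2 or more enriched clusters against 2 of 8 in striatum, so it had to differ and no test is given. Over all genes 42.6% were called lower in striatum and 51.5% in either direction. The median over all genes was −0.64, and −0.33 when libraries were divided by their total instead, with calls of 294 higher and 1395 lower turning into 578 and 888. Prkca was −2.13 under that scaling and −1.87 in males alone.

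Prkcb went the other way, against the median of all genes. Its TDP-43 values were 31.0 to 41.6 (median 35.7) in NT cortex and 38.8 to 61.1 (median 42.8) in NT striatum, and the groups overlapped. Prkcb was higher in striatum (35.6 ± 3.57 and 44.9 ± 7.52, log2 0.32, SE 0.10, limma adjusted p = 0.0103), as were 8.97% of genes. It was 0.45 without NT male 1 of striatum (adjusted p = 0.00188), and it did not pass with listed clusters, the study's thresholds or covered bases (0.22, 0.27 and 0.24). Prkce showed no called difference (27.1 ± 3.96 and 24.7 ± 5.65, −0.16, SE 0.15, adjusted p = 0.391) and changed direction without NT male 1 (0.14). In m6A eCLIP-seq none of Prkca (−0.28, SE 0.14, adjusted p = 0.165), Prkcb (0.29, SE 0.22, adjusted p = 0.408) and Prkce (−0.18, SE 0.07, adjusted p = 0.0822) was called, where 18.7% of 9272 genes were.

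With all 32 libraries of an assay on a common scale, the order of the groups could be read for each gene. For Prkcb in TDP-43 eCLIP-seq NT striatum was highest (41.9 ± 6.80), followed by NT cortex (33.4 ± 3.10), R6/2 cortex (25 ± 2.26) and R6/2 striatum (21.1 ± 1.82), and only NT cortex and R6/2 cortex were neighbours whose mean ± SD ranges did not meet. For Prkca the order was NT cortex (5.62 ± 2.49), R6/2 cortex (1.97 ± 1.45), NT striatum (0.884 ± 0.890) and R6/2 striatum (0.114 ± 0.322), and for Prkce NT cortex (25.4 ± 3.50), NT striatum (23.1 ± 5.38), R6/2 cortex (21.8 ± 4.09) and R6/2 striatum (15.1 ± 4.83), with all neighbours meeting. In m6A eCLIP-seq R6/2 was below NT within each region for Prkca, Prkcb and Prkce, from 48.6 ± 4.31 in NT cortex to 39.9 ± 2.31 in R6/2 striatum for Prkce, and neighbours met throughout. The difference of the R6/2 effect between males and females or between regions was tested for Prkca and Prkce in 11 contrasts. No adjusted p of limma fell below 0.653. Striatal Prkca had 0 to 2 enriched TDP-43 clusters in NT and 0 to 1 in R6/2 libraries. Its TDP-43 contrast between regions (0.44, SE 0.58) therefore cannot show whether a fall like that of cortex occurred in striatum.

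After the TDP-43 ASO, Prkce gained enriched m6A clusters. The 3 PBS libraries had 48.6, 52.0 and 52.9 normalized enriched clusters and the 3 ASO libraries 61.9, 62.9 and 67.2. The groups did not overlap, which with ASO higher was so for 24.7% of the 10149 genes tested. Prkce rose (51.2 ± 2.26 and 64.0 ± 2.81, SD, n = 3, log2 0.32, SE 0.05, 95% interval 0.21 to 0.43, 1.25-fold, limma adjusted p = 0.00523), where 13.4% of genes were called higher and 30.2% in either direction. Covered bases gave 0.04 (adjusted p = 0.799), and the study's thresholds gave −0.79 (adjusted p = 0.148). Before normalization the PBS libraries had 53 to 55 enriched clusters in Prkce (mean 54.0) and the ASO libraries 60 to 63 (mean 61.0). Each PBS library listed 61 clusters in Prkce and each ASO library 64, on intervals shared within the treatment. The small spread within a treatment therefore rests on joint calling.

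Prkca and Prkcb were not called after the ASO. Prkca had 16.7, 17.3 and 19.8 in PBS and 14.7, 14.9 and 16.5 in ASO libraries (log2 −0.21, SE 0.08, limma adjusted p = 0.0919), without overlap, as 25.5% of genes had with ASO lower. Each PBS library listed 34 clusters in Prkca and each ASO library 24. Prkcb had 2.95, 3.84 and 5.40 in PBS and 5.24, 5.33 and 6.19 in ASO libraries, which overlapped (log2 0.45, SE 0.21, 95% interval −0.05 to 0.95, adjusted p = 0.154), and Prkcd had 0 or 1. The m6A sites of Prkca, Prkcb and Prkce were enriched in libraries of both treatments, except 1 of 3 bases in coding sequence of Prkce that was enriched in PBS alone, as 2.94% of all sites were. Medium spiny neuron markers summed to 94.3 to 101 in PBS and 96.0 to 98.1 in ASO libraries.

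**Figure D5:**
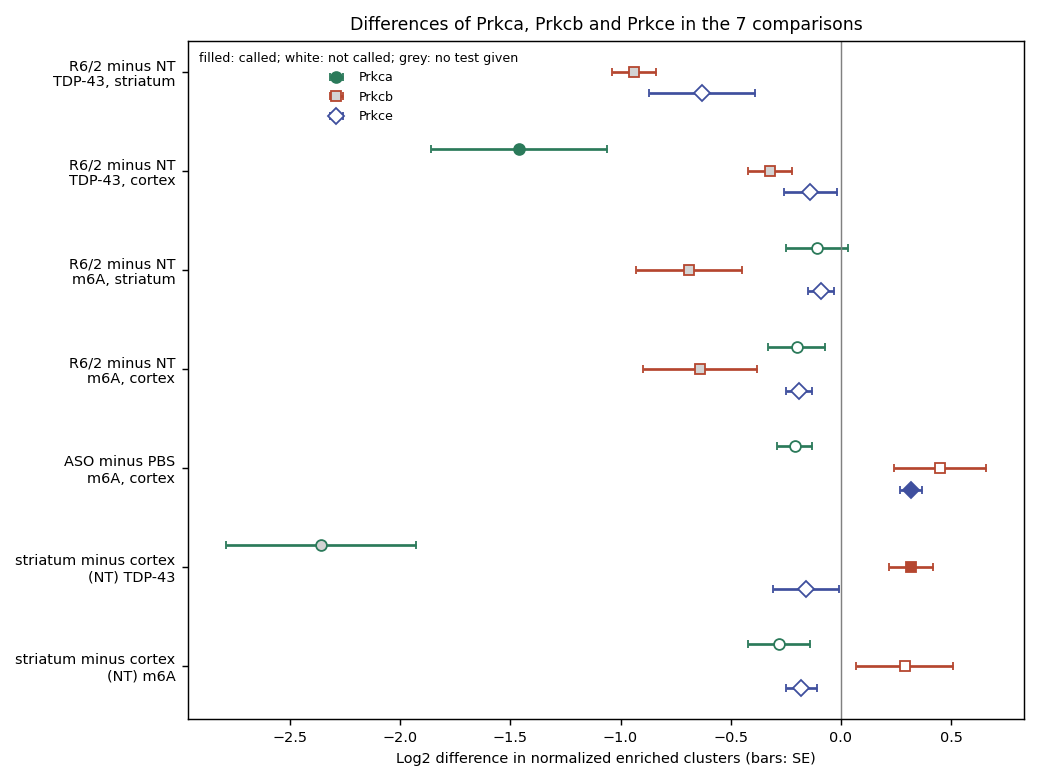
Log2 difference in normalized enriched clusters (horizontal axis, bars are SE) of Prkca, Prkcb and Prkce in the 7 comparisons (vertical axis). Filled points were called at an adjusted p under 0.05, white points were not and for grey points no test is given, and Prkca in cortex by genotype (−1.46), Prkcb by region (0.32) and Prkce after the ASO (0.32) are filled. The lowest grey point is Prkca by region (−2.36).

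Other protein kinase C genes were read on the same common scale. Prkch, Prkcq and Prkci (the η, θ and ι enzymes) had group means of at most 0.924 ± 1.19 enriched TDP-43 clusters, and Prkcz, the atypical ζ enzyme, had 6.35 ± 1.57 in NT cortex, 3.52 ± 1.91 in R6/2 cortex, 2.76 ± 1.76 in NT striatum and 0.895 ± 1.08 in R6/2 striatum. In m6A eCLIP-seq, on the scale of the comparison of regions, Prkch was higher in NT striatum than in NT cortex (9.71 ± 1.58 and 3.57 ± 1.02, log2 1.36, SE 0.15, limma adjusted p = 6.86e-07). On the scale of the ASO experiment Prkci had 0.948 ± 0.0426 in PBS and 2.10 ± 0.0344 in ASO libraries, which is 1 and 2 clusters per library on intervals shared within a treatment. It passed the filter through the ASO libraries alone, so no test is given.

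The wider pathway was read from a list of 74 genes for other protein kinases C and N, receptors, phospholipases, diacylglycerol kinases, anchors, substrates and other diacylglycerol-binding proteins, the members excluded. Genes of the list whose lower group had 2 or more clusters in fewer than 50% of its libraries passed the filter through the other group and had to differ, so they are counted apart and given no p. In TDP-43 eCLIP-seq of striatum, 0 rose and 6 fell of 21 tested in R6/2, including 2 such genes, with a median log2 difference of −0.18 against −0.05 over all genes, of which 13.6% were called. Without the intronic libraries 0 of 26 were called (median −0.28 against 0.39), in males alone 0 of 27, and without the libraries with fewer than 10000 enriched clusters 1 rose and 9 fell of 26. Chn1, a Rac GTPase-activating protein, fell from 10.3 ± 2.35 to 2.74 ± 2.24 (log2 −2.22, SE 0.50, limma adjusted p = 0.00639), and Pdpk1, the kinase that primes protein kinase C by phosphorylation, fell from 7.38 ± 2.67 to 2.56 ± 1.81 (−1.69, SE 0.50, adjusted p = 0.0295). Both calls were lost without the intronic libraries (−0.81, adjusted p = 0.0855, and −0.58, adjusted p = 0.372) and in males alone (−1.69, adjusted p = 0.372, and −1.36, adjusted p = 0.513), where 27 and 3 genes were called in all. With all listed clusters Chn1 was −0.04 (adjusted p = 0.777). Rasgrp2, an exchange factor for Rap, had 3.58 ± 1.51 in NT and 0.824 ± 0.589 in R6/2 (log2 −1.70), and passed the filter through NT.

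In TDP-43 eCLIP-seq of cortex 1 rose and 7 fell of 36 tested, 1 of them a gene that passed through a single group (median −0.20 against −0.09), where 7.10% of all genes were called. Dgkb, a diacylglycerol kinase, fell from 5.05 ± 1.42 to 1.70 ± 1.32 (adjusted p = 0.0252), and Unc13c, a synaptic vesicle priming protein, from 10.6 ± 2.54 to 5.40 ± 3.27 (adjusted p = 0.0304). Marcks, a substrate of protein kinase C at the plasma membrane, rose from 7.29 ± 1.57 to 10.8 ± 2.23 (adjusted p = 0.0362).

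In m6A eCLIP-seq 5 rose and 9 fell of 60 tested in striatum (median −0.16 against 0.02, with 9.65% of all genes called), and 3 rose and 8 fell of 55 in cortex (−0.08 against 0.02, with 6.17% called), each including 1 gene that passed through a single group. In striatum this was Rasgrp2, with 5.25 ± 3.08 in NT and 0.223 ± 0.415 in R6/2. Rasgrp1, a Ras exchange factor, fell from 18.1 ± 1.49 to 12.2 ± 2.99 (limma adjusted p = 0.00321), and Plcb1, a phospholipase C driven by Gq, from 15.7 ± 2.22 to 10.6 ± 1.61 (adjusted p = 2.25e-04). Prkd3, a protein kinase D, rose from 2.57 ± 1.96 to 4.36 ± 1.45 (adjusted p = 0.0337), Gnaq, the Gq α subunit, from 5.20 ± 2.11 to 8.61 ± 3.08 (adjusted p = 0.00725), and Plch1, a phospholipase C, from 3.16 ± 1.19 to 5.14 ± 1.08 (adjusted p = 0.0170). In cortex the adrenergic receptors Adra1a (9.21 ± 2.37 to 4.63 ± 2.00, adjusted p = 0.00332) and Adra1d (8.55 ± 1.34 to 5.60 ± 0.992, adjusted p = 0.00393) and the serotonin receptor Htr2a (16.6 ± 1.58 to 10.9 ± 2.31, adjusted p = 0.00125) fell. Marcks again rose, from 9.24 ± 2.71 to 13.5 ± 2.48 (adjusted p = 0.0376), as did the diacylglycerol kinase Dgke (11.2 ± 1.60 to 16.8 ± 3.06, adjusted p = 0.00457). The cytoskeletal substrate Add1 had 1.11 ± 1.63 in NT and 3.02 ± 1.12 in R6/2 and passed through R6/2.

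After the ASO 12 of 59 rose and 11 fell, including 4 that passed through a single treatment (median −0.04 against −0.02), where 30.2% of all genes were called. Chn2, a relative of Chn1, fell from 12.0 ± 2.09 to 5.59 ± 0.526 (limma adjusted p = 0.00413). Nrgn, neurogranin, rose from 4.37 ± 1.75 to 11.2 ± 1.39 (adjusted p = 0.0132). Htr2c, a serotonin receptor coupled to Gq, had 3.79 ± 0.170 in PBS and 1.05 ± 0.0172 in ASO libraries and passed through PBS, and Prkd2, a protein kinase D, had the same 0.948 ± 0.0426 and 2.10 ± 0.0344 as Prkci and passed through the ASO libraries.

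Between NT regions, 6 of 32 were higher and 15 lower in striatum for TDP-43 (median −0.25 against −0.64), including 5 that passed through a single region, where 8.97% of all genes were called higher and 42.6% lower, a split that moved with the scaling as given for Prkca. For m6A 10 and 13 of 58 were (0.14 against 0.02), including 1, where 18.7% of all genes were called. In TDP-43 eCLIP-seq Rasgrp2 was higher in striatum (log2 2.21, limma adjusted p = 2.40e-04) and Dgkz was lower (−3.77, adjusted p = 2.40e-06), while Akap12, an anchor of protein kinases (log2 −2.89), and Plcb4 (−2.20) passed through cortex and are given without a test. Unc13c (1.90, limma adjusted p = 4.57e-08) and Dgkb (1.30, adjusted p = 2.14e-04) were higher in striatum. In the m6A data Rasgrp2 had a log2 difference of 3.03 and passed through striatum. Adra1d (−1.83, adjusted p = 3.09e-09), Unc13b (−1.18, adjusted p = 1.97e-05) and Plch1 (−1.06, adjusted p = 0.00108) were lower in striatum, and Plce1, a phospholipase C, was higher (1.11, adjusted p = 6.88e-05).

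Markers of medium spiny neurons, the striatal projection neurons, moved with genotype in the same libraries. In TDP-43 eCLIP-seq of striatum 6 of 8 tested of 10 were called lower in R6/2 (median −1.26), where 13.6% of all genes were called. Of these 6, 2 passed the filter through NT and had to differ. The 10 markers summed to 63.6 to 128 in NT and 28.3 to 43.9 in R6/2 libraries, and Tac1 and Gpr6 were at 0. Without the intronic libraries 3 of 8 were lower (median −1.06), and without those with fewer than 10000 enriched clusters 6 of 8 (median −1.35). In cortex all 3 tested were lower (median −1.78, sums of 9.58 to 17.0 and 1.16 to 5.18, with Drd1, Drd2, Tac1 and Gpr6 at 0). All 3 passed the filter through NT and had to differ. In m6A eCLIP-seq 9 of 10 were called lower in striatum (median −0.65, sums of 176 to 224 and 114 to 132) and 6 of 8 in cortex (−0.85, sums of 62.5 to 74.2 and 34.3 to 52.7), each including 1 such gene. Over all genes 7.10% were called in TDP-43 cortex, 9.65% in m6A striatum and 6.17% in m6A cortex. The part of this in the values of Prkcb, Prkca and Chn1 was not tested. Of the other markers, none was called in the R6/2 comparisons of TDP-43 eCLIP-seq, where microglial, vascular and thalamic markers were at or near 0 (sums of at most 1.62). In m6A eCLIP-seq 2 of 6 astrocyte markers and 1 of 3 thalamic markers were lower in R6/2 striatum and 1 of 6 astrocyte markers in R6/2 cortex, and no marker of cortical excitatory neurons, oligodendrocytes, microglia or vessels was called. After the ASO 1 of 9 medium spiny neuron, 1 of 7 cortical excitatory, 1 of 3 thalamic and 2 of 6 microglial markers tested rose. Of 6 astrocyte markers 1 rose and 2 fell, and no oligodendrocyte or vascular marker was called. Over all genes 30.2% were called there, and 13.4% were called higher.

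Other genes followed the members across libraries. Over the 32 TDP-43 libraries the genes with the pattern most like Prkcb, among 1867 whose mean was 4 or more enriched clusters, were Cnr1 (Pearson r = 0.82), Rragd (0.81) and Tcf20 (0.81). Those most like Prkce were Sdf4 (0.92), Ttll7 (0.88) and Tmem132b (0.88), and those most like Prkca were Ank1 (0.89), Kcnh1 (0.89) and Etl4 (0.88). In m6A eCLIP-seq, among 5927 or 5928 genes, they were AI593442, Camk2b and Rapgef4 for Prkcb (0.75, 0.71 and 0.69), Diras2, Htr1a and Nptx2 for Prkce (0.71, 0.70 and 0.68), and Ksr1, Farp1 and Syne1 for Prkca (0.68, 0.67 and 0.67). These correlations describe libraries that share region, genotype and yield.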

How the data were processed

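TDP-43 and m6A eCLIP-seq clusters were analysed for 70 immunoprecipitation libraries. Per the study's methods the authors prepared them with ECLIPSEBIO kits and called clusters with CLIPper (mm10) against the input of the same sample. The deposited values are a −log10 p of immunoprecipitated against input reads and the log2 fold of the same reads. The 70 input samples were used only through these values. Read depth is unknown.

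The gene of a cluster was the one of GENCODE mouse release 21 (vM21) that held its midpoint on the same strand. Enriched clusters per gene (−log10 p of 3 or more) were divided by median-ratio size factors. Genes with 2 or more in at least 50% of the libraries were fitted on log2 values with 0.5 added, in limma 3.58.1 (lmFit, eBayes with trend, two-sided, sex as covariate in both-sex comparisons, R 4.3.3). Benjamini-Hochberg adjustment covered all genes tested, with calls at an adjusted p under 0.05. The p-values measure the spread between these libraries. In the ASO experiment this spread is between libraries whose intervals are shared within a treatment, so they are not independent. SE is limma's moderated standard error. Sites and counts used Python 3.11.15 and NumPy 2.4.6. The fit was tested on simulated data.

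The members, the pathway list and the marker lists (medium spiny, cortical excitatory and thalamic neurons, astrocytes, oligodendrocytes, microglia, vascular cells) were chosen with earlier results of these data known. Named genes were the members, the other protein kinase C genes and, per comparison, up to 3 called pathway genes in each direction by size of the difference, and some of these are not reported here. For genes most like a member, genes averaging 4 or more enriched clusters were ranked by Pearson correlation. Alternatives were all listed clusters, the study's thresholds (log2 fold of at least 3 as well), covered bases, 4 added, no filter, total scaling, a replicate block, each sex alone, each library left out, and libraries with many intronic or few enriched clusters left out. The last of these, and the recounts of lists, segments and sites without libraries, were added after seeing the data. Protein identity between members was not analysed here.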

Additional observations from a re-analysis of the deposited data

Results flagged for a closer look

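In 5 of 28 groups of libraries tested for a library far from the rest, the highest or lowest library stood apart. Chance gives about 1 in 20 groups for values on a continuous scale. That share does not apply where a single cluster stands against libraries at 0, as for Prkca in striatum and Prkcd in cortex below. For Prkcb in TDP-43 eCLIP-seq of striatum, NT male 1 had 41.8 normalized enriched clusters and the next NT library 33.6. This library had 17 enriched clusters in Prkcb before normalization and 4929 in all, the fewest of the series, and without it the R6/2 against NT difference was −0.92 in place of −0.94.

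For Prkca in TDP-43 eCLIP-seq of cortex, R6/2 female 3 had 6.22 and the next R6/2 library 2.71. In striatum R6/2 male 3 had 0.699, which is a single cluster, and the other R6/2 libraries 0. For Prkcd in m6A eCLIP-seq of cortex, NT female 1 had 1.07, also a single cluster, and the other NT libraries 0. For Prkce in m6A eCLIP-seq of striatum, NT female 2 was lowest at 35.0, with the next NT library at 43.8.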

How the results depend on the processing

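Values are log2 differences. With all listed clusters, the R6/2 against NT difference was 0.40 for Prkca, −0.05 for Prkcb and 0.30 for Prkce in TDP-43 striatum, 0.11 for Prkca and −0.02 for Prkcb in TDP-43 cortex, and −0.13 and −0.03 for Prkcb in m6A striatum and cortex. After the ASO it was −0.44 for Prkca (adjusted p = 3.34e-61) and −0.52 for Prkcb, and between regions 0.22 (TDP-43) and 0.35 (m6A, adjusted p = 0.0161) for Prkcb. The p-values of listed clusters after the ASO rest on intervals called jointly within a treatment. With the study's thresholds, Prkca was −1.0 and Prkcb −0.70 in TDP-43 cortex, Prkce −0.79 after the ASO and Prkcb 0.27 between regions (TDP-43). With covered bases, Prkcb was −0.61 in TDP-43 striatum and −0.18 in m6A striatum, Prkca 0.01 in m6A striatum, 0.04 in m6A cortex and 0.09 after the ASO, and Prkce −0.16 in m6A cortex (adjusted p = 0.0250) and 0.04 after the ASO. Between regions covered bases gave 0.24 for Prkcb (TDP-43), −0.02 for Prkcb and 0.04 for Prkce (m6A). Total scaling gave −0.66 for Prkce in TDP-43 striatum (adjusted p = 0.0338) and 0.23 between regions. Females alone gave −1.62 for Prkca in TDP-43 cortex and 0.16 for Prkce between regions (TDP-43), and males alone −1.87 for Prkca and 0.32 for Prkcb between regions (TDP-43). Without libraries with fewer than 10000 enriched clusters, chosen after seeing the data, Prkce was −0.47 in TDP-43 striatum and 0.14 between regions. The cause of these changes was not tested.

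The labels do not state whether replicate numbers pair the samples, and the same number in both regions may be a single animal. The correlation of same-numbered libraries ran from −0.46 to 0.46. Between NT striatum and cortex it was 0.02 to 0.09 over 8 m6A pairs. Over 8 TDP-43 pairs it was −0.11 to 0.28, with 4 above 0.1. These correlations cannot settle the pairing, so the replicate block is given as an alternative. The replicate block left Prkca in TDP-43 cortex at −1.46 without a call (adjusted p = 0.0670) and changed no other call of the members. It lowered the calls over all genes there from 277 to 128. Leaving out each library in turn gave −1.67 to −1.08 for Prkca in TDP-43 cortex, with 9 of 16 fits losing the call. It gave −0.78 to −0.40 for Prkce in TDP-43 striatum (called without NT male 1), −0.22 to −0.16 for Prkce in m6A cortex (called without NT male 3), 0.26 to 0.64 for Prkcb after the ASO (called without PBS male 3), −0.22 to −0.13 for Prkce between regions in m6A (called without cortex NT male 1 or male 3) and −0.21 to 0.14 for Prkce between regions in TDP-43 (opposite direction without NT male 1 of striatum). The other 275 leave-one-out fits kept direction and, where a test was made, the call.

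Prkcb 3′ UTR sites in NT alone numbered 2 in cortex and 1 in striatum. With any listed cluster as presence they numbered 0 in both. With the study's thresholds they also numbered 0 in both, of only 2 cortical and 1 striatal 3′ UTR sites. In cortex they numbered 1 when sites needed 3 or 5 libraries and 3 when clusters had to cover at least 50% of the site. Over all genes, 318 were called in TDP-43 striatum, 3 in males alone and 27 without the libraries with many intronic clusters. After the ASO 3064 were called, 227 with covered bases, 3 at the study's thresholds and 9401 with all listed clusters. Depth is unknown, and genes with few clusters, Prkcd and striatal Prkca, could not be tested.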
